A study of Mus musculus with 10 samples.

Results

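The genes described here are 10 members of the ATF4 amino acid response: Atf4, Ddit3, Atf5, Trib3, Chac1, Asns, Phgdh, Psat1, Mthfd2 and Slc7a11. They were taken by gene symbol, as all probe sets annotated with 1 of these symbols alone. This gave 21 of 45101 probe sets, or 10 of 18193 named genes. The study measured them on 10 Affymetrix oligonucleotide arrays of total RNA from cultured mouse cells. It asked how Med23, a subunit of the Mediator complex, bears on the choice between smooth muscle and adipocyte fates. Embryonic fibroblasts (MEFs) gave 6 arrays, with Med23 knockout (KO) and wild-type (WT) cells sampled at 0 min (no serum), 30 min and 90 min of serum exposure. The 10T1/2 cells, a mouse mesenchymal line from embryo, gave 4 arrays, which held MAL overexpression together with Med23 knockdown, Med23 knockdown alone, MAL overexpression alone and an untreated control. MAL is a coactivator of the serum response factor SRF. The MEFs had been isolated from day 9.5 embryos and had immortalised spontaneously, and both cell types were kept in DMEM with 10% FBS, per the labels. The labels name no further line of either genotype, so genotype and line cannot be told apart, and they give neither the serum dose nor the means of knockdown. Each condition had 1 array.

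When amino acids run short, or when the endoplasmic reticulum or the redox state is disturbed, kinases phosphorylate the translation factor eIF2alpha. Overall protein synthesis then slows while ATF4, a bZIP transcription factor, is translated more, and ATF4 pairs with C/EBP-family partners on composite elements to raise genes for amino acid synthesis, uptake and tRNA charging. Since ATF4 is set largely at translation, arrays of RNA do not read its protein. In fibroblasts the same pathway also answers growth stimuli, which raise the demand for amino acids.

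The composite element has the core TGATGNAA, and the promoter windows in which a script found it are shown because they are the known route from ATF4 to these genes. RefSeq windows of GRCm38.p6, from 250 bases before to 50 bases after each start, were searched on both strands. All 10 members had a window, 12 in all, and the core was in 4 of the 12 (33.3%), against 3.97% of 32851 windows of all genes. The members that held it were Asns, Chac1, Slc7a11 and Trib3, 40.0% of the 10 genes against 4.51% of 27025 genes. Capitals mark the core or its reverse complement, read 5′ to 3′ on the strand of the gene. The Asns match began 23 bases before the start (chr6:7693210-7693262, minus strand), that of Chac1 193 bases before (chr2:119351019-119351086, plus strand) and the first of Slc7a11 66 bases before (chr3:50443642-50443709, minus strand).
Asns: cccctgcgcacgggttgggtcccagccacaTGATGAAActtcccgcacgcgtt
Chac1: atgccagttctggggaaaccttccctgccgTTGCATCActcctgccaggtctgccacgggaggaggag
Slc7a11: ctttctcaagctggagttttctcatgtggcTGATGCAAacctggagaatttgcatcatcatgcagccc
A second Slc7a11 match, on the opposite strand, lay 47 bases before the start and is in lower case within the same stretch. The Trib3 match lay within the 50 bases after the start. The ER stress element, searched in the same way, was in 0 of the 12 member windows and in 0.067% of all windows. A match is a description of letters only, and its absence from a window says nothing about binding.

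Med23 itself (probe set 1452064_at) read 3.30, 3.30 and 2.91 in KO MEFs at 0, 30 and 90 min, below the array medians, against 7.14, 7.39 and 6.90 in WT MEFs. It fell at least 9.54-fold (KO coefficient -3.97, SE 0.13, limma adjusted p = 9.27e-06). In 10T1/2 cells it read 3.94 with both treatments and 4.24 with knockdown alone, against 5.67 with MAL and 5.45 in the control. That knockdown coefficient of -1.47 (SE 0.22) did not pass (adjusted p = 0.0689). The probe set of Mrtfa, the MAL gene, had a coefficient of -0.21 with MAL (adjusted p = 0.515) and gave no check of that label. Of 11 fibroblast markers, 9 were above the array median on every KO array, 9 on every WT array and 10 on every 10T1/2 array. Array medians lay between 3.64 and 3.93 on the log2 scale and values between 1.85 and 14.7. Arrays have no read depth, so precision is bounded by how few arrays there were. The p-values measure the spread left by an additive model over single arrays, which is not a spread between replicate cultures.

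Loss of Med23 in MEFs went with lower expression of several regulators and outputs of the pathway, while Atf4 mRNA itself was not called. Ddit3, Atf5, Trib3, Chac1 and Phgdh fell and Psat1 rose. Thus 6 of the 9 members tested passed (5 lower, 1 higher), in a comparison in which limma called 42.1% of all 11933 genes. The median coefficient of the 9 members was -0.54, against -0.02 over all genes, and their median absolute coefficient was 0.76, against 0.367 over all genes. Members and related lists were chosen with earlier results of these data known, so setting them against all genes, here and below, describes and does not test. Without the 0 min arrays 3 members passed, since Chac1, Psat1 and Phgdh lost their calls. In these bulk cultures, fewer cells of a kind and less RNA per cell cannot be told apart.

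**Figure D1:**
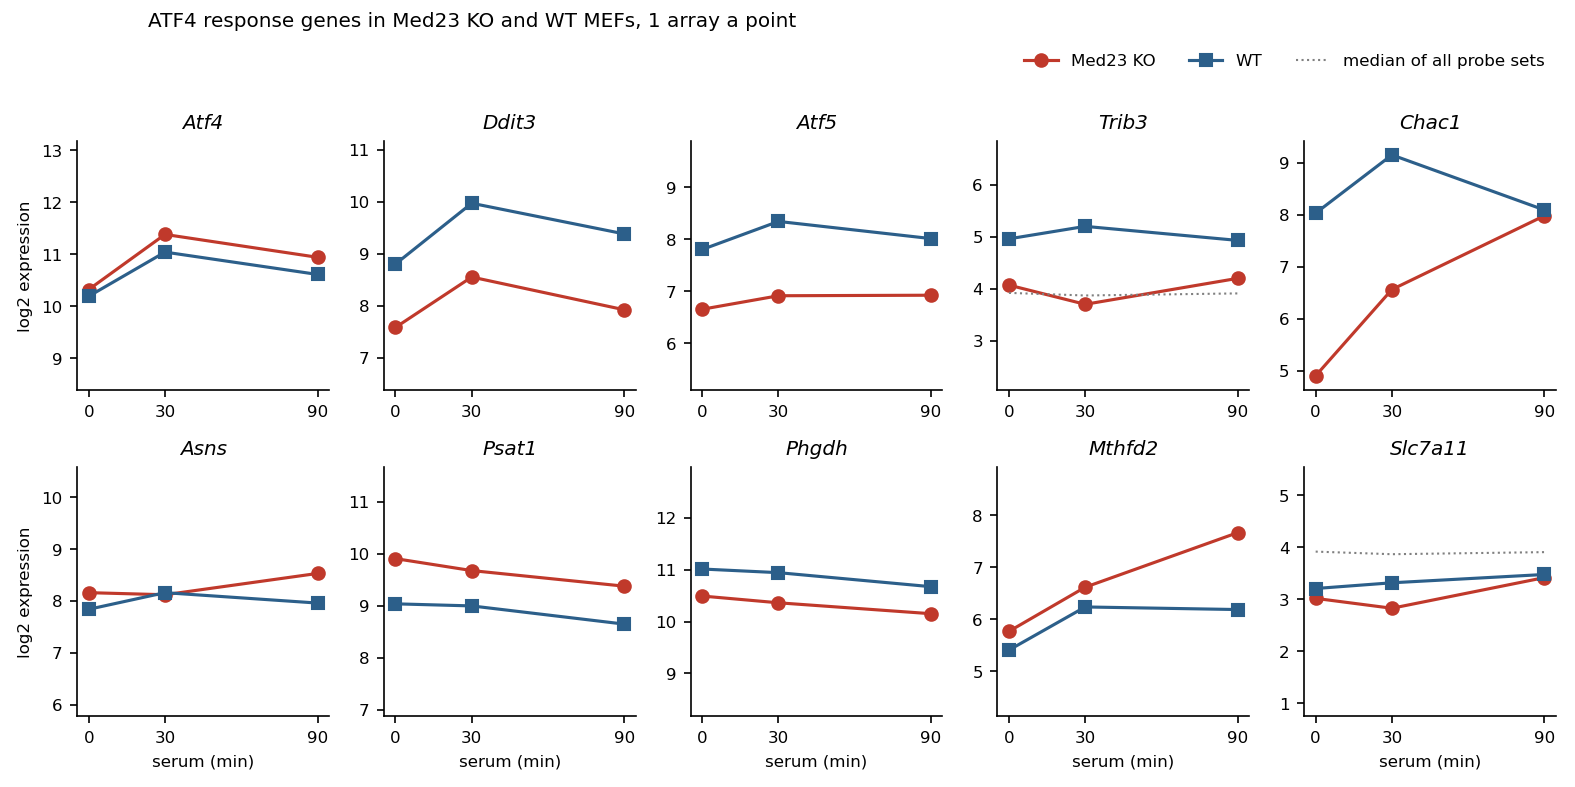
Log2 expression (y axis) of each of the 10 genes at 0, 30 and 90 min of serum (x axis) in Med23 KO MEFs (red circles) and WT MEFs (blue squares), 1 array a point, with a dotted line for the median of all probe sets where it falls in range. Ddit3, Atf5, Trib3 and Phgdh lie lower in KO at every time, Psat1 lies higher, and the Chac1 lines meet at 90 min (7.98 in KO, 8.09 in WT).

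Among the transcription factors, Atf4 (1448135_at) read 10.32, 11.38 and 10.94 in KO MEFs at 0, 30 and 90 min, and 10.19, 11.04 and 10.61 in WT MEFs. The KO arrays were slightly higher at each time on this probe set, and the ranges of the genotypes overlapped. A second Atf4 probe set (1438992_x_at) read 8.68, 9.60 and 9.19 in KO and 8.86, 8.95 and 9.38 in WT, lower in KO at 0 and 90 min, with a mean difference of 0.09. The coefficient of the first, 0.27 (SE 0.13, 95% interval -0.04 to 0.57), did not pass (adjusted p = 0.139).

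Ddit3, which encodes the stress-induced C/EBP-family factor CHOP, moved the other way. It read 7.58, 8.55 and 7.92 in KO MEFs and 8.80, 9.97 and 9.38 in WT MEFs, so that every KO array was below every WT array. Means were 8.02 ± 0.49 in KO and 9.38 ± 0.59 in WT (SD over the 3 serum times). The fall was 2.58-fold (coefficient -1.37, SE 0.13, adjusted p = 0.000492), and the differences of -1.22, -1.42 and -1.46 at 0, 30 and 90 min were alike. A second Ddit3 probe set (1443897_at) differed by -0.85 on average. It read 5.17, 7.39 and 5.62 in KO and 6.16, 7.82 and 6.74 in WT. On that probe set the ranges of the genotypes overlapped, and the gap was smallest at 30 min.

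Atf5 encodes a bZIP factor whose translation, like that of ATF4, is raised by eIF2alpha phosphorylation. It read 6.65, 6.91 and 6.92 in KO MEFs, against 7.80, 8.34 and 8.01 in WT MEFs. The genotypes did not overlap, and the KO arrays lay close together. Atf5 fell 2.33-fold (coefficient -1.22, SE 0.13, adjusted p = 0.000926).

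Trib3, a pseudokinase that binds ATF4 and holds back its activity, was low in both genotypes. Its values were 4.07, 3.70 and 4.20 in KO MEFs, the second below the array median, against 4.96, 5.20 and 4.93 in WT MEFs. Every KO array was below every WT array. It fell 2.06-fold (coefficient -1.04, SE 0.18, adjusted p = 0.00544), or at least 1.98-fold with the low level raised to the array median. The second probe set (1426065_a_at) had a mean difference of -0.94, most of it from the 30 min arrays. It read 4.19, 3.63 and 4.08 in KO at 0, 30 and 90 min, and 4.48, 6.02 and 4.21 in WT.

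Chac1 encodes an enzyme that breaks down glutathione and is an output of the ATF4 branch. It read 4.90, 6.56 and 7.98 in KO MEFs, and 8.03, 9.15 and 8.09 in WT MEFs. The gap was -3.13 at 0 min and -2.59 at 30 min but -0.11 at 90 min, when the genotypes stood almost level. Chac1 fell 3.85-fold over the 3 times, with a wide interval (coefficient -1.94, SE 0.54, 95% interval -3.26 to -0.63, adjusted p = 0.0305). The call was lost without the 0 min arrays (-1.35, adjusted p = 0.15), without the 30 min arrays (-1.62, adjusted p = 0.194), with low levels of all genes raised to the array median (adjusted p = 0.0566) and with no term for serum time (adjusted p = 0.106). In those last alternatives the coefficient stayed at -1.94, and no Chac1 level was itself raised. Without the 90 min arrays it was -2.86 (adjusted p = 0.00386).

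The enzymes of serine synthesis moved in opposite directions. Phgdh, which diverts a glycolytic intermediate into the serine pathway, read 10.49, 10.36 and 10.15 in KO MEFs, and 11.01, 10.94 and 10.67 in WT MEFs, with no overlap. It fell 1.45-fold (1437621_x_at, coefficient -0.54, SE 0.12, adjusted p = 0.0138). All 4 Phgdh probe sets were lower in KO, with mean differences from -0.62 to -0.32. Without the 0 min or the 30 min arrays the call was lost (adjusted p = 0.0957 and 0.101), as it was with no term for serum time (adjusted p = 0.0582).

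Psat1, the aminotransferase that acts after PHGDH, read 9.91, 9.68 and 9.38 in KO MEFs, against 9.04, 9.0 and 8.65 in WT MEFs. Every KO array was above every WT array, and both genotypes had their lowest value at 90 min. Psat1 rose 1.69-fold (coefficient 0.76, SE 0.12, adjusted p = 0.00437). Leaving out the 0 min arrays gave 0.71 and an adjusted p of 0.0513, which missed the threshold. Its second probe set (1454607_s_at) differed by 0.87.

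Asns, which makes asparagine from aspartate and glutamine and whose promoter held the core element, read 8.16, 8.12 and 8.53 in KO MEFs and 7.84, 8.16 and 7.96 in WT MEFs. The genotypes overlapped at 30 min, and the coefficient of 0.28 (SE 0.16, 95% interval -0.10 to 0.66) did not pass (adjusted p = 0.196). Mthfd2, a mitochondrial enzyme of one-carbon metabolism that uses units derived from serine, read 5.77, 6.62 and 7.67 in KO MEFs and 5.41, 6.24 and 6.19 in WT MEFs. The KO array at 90 min stood far above the other 5. The coefficient of 0.74 (SE 0.24) just missed the threshold (adjusted p = 0.0507) and passed in 5 of 12 alternatives, with adjusted p from 0.0372 to 0.324 over the 12. Without the 90 min arrays it was 0.37 (adjusted p = 0.0586).

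Slc7a11, the cystine and glutamate exchanger that feeds glutathione synthesis, read 3.02, 2.83 and 3.42 in KO MEFs and 3.21, 3.32 and 3.48 in WT MEFs. In 10T1/2 cells it read between 3.32 and 3.65. All of these were below the array medians, as were those of its second probe set, so Slc7a11 did not enter the test and no difference is given for it. Its promoter carried the core sequence on both strands.

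Some markers of other cell types also differed between the MEF genotypes. The mean level of 4 neural markers was 4.04 to 4.23 in KO and 5.65 to 6.27 in WT, with Sox2 at 2.61 to 2.99 in KO and 7.61 to 9.11 in WT and Tubb3 below the array median on all 6 arrays. Sox10 overlapped, at 4.22 to 4.50 in KO and 4.43 to 4.71 in WT. For 6 macrophage and leukocyte markers the mean was 3.81 to 3.92 in KO and 4.50 to 4.71 in WT, with Ptprc and Adgre1 below the median on all 6. Among 5 endothelial markers, Emcn read 4.95 to 5.38 in KO and 2.73 to 3.10 in WT, while Pecam1 and Cdh5 were below the array median on all 6. Some fibroblast markers differed too, while Col1a1 (12.12 to 12.36 in KO, 12.11 to 12.21 in WT) and Col3a1 (12.47 to 12.89 in KO, 12.70 to 12.96 in WT) overlapped. Dcn read 4.26 to 4.73 in KO and 13.60 to 13.71 in WT, Col1a2 13.31 to 13.40 in KO and 9.13 to 9.76 in WT, and S100a4 11.84 to 12.08 in KO and 13.79 to 13.91 in WT. The part of these differences in the results for the ATF4 genes was not tested.

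The wider pathway did not move as a block in KO MEFs. Over 5 lists of ATF4 and eIF2alpha genes, 9 of 62 tested rose and 23 fell, with a median coefficient of -0.32. That is 51.6% called, against 42.1% of all genes, of which 2535 were higher and 2483 lower. Feedback and stress-output genes held 1 of 16 higher and 8 lower, or 56.2% called, with a median of -0.59. Vldlr, a lipoprotein receptor gene that ATF4 raises under ER stress, had the lowest coefficient (-4.89, SE 0.20, adjusted p = 2e-05), or -4.66 with low levels raised, a fall of at least 25.3-fold. Its level read 4.01, 3.60 and 3.47 in KO and 8.42, 8.51 and 8.82 in WT. The stress-inducible chromatin protein gene Nupr1 had a coefficient of -2.99 (SE 0.18), the mTOR inhibitor gene Ddit4 -2.73 (SE 0.27) and the C/EBP partner gene Cebpb -2.05 (SE 0.18), all past the threshold. Jdp2, a bZIP repressor gene, rose by 1.77 (SE 0.17, adjusted p = 0.000565).

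Amino acid transporter genes held 1 of 9 higher and 2 lower, or 33.3% called, below the share of all genes. The glycine transporter gene Slc6a9 fell 2.46-fold and the neutral amino acid transporter gene Slc1a4 1.53-fold, while the glutamine transporter gene Slc1a5 rose 2.58-fold (adjusted p = 0.00129, 0.0238 and 0.000637). The other enzymes of serine, proline, alanine and one-carbon metabolism held 2 of 11 higher and 5 lower, or 63.6% called. Psph, the phosphatase that completes serine synthesis, fell 1.91-fold (coefficient -0.93, SE 0.13, adjusted p = 0.00249), the same direction as Phgdh and opposite to Psat1. Mthfd1l fell by 0.81 on the log2 scale, whereas Shmt2, which releases one-carbon units from serine in mitochondria, rose by 0.57 (adjusted p = 0.00542 and 0.0304). Cth, of cysteine synthesis, fell with a coefficient of -1.56, or of -0.79 with levels below the array median raised to it.

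The aminoacyl-tRNA synthetase genes were divided, with 3 of 19 higher, 6 lower and a median of -0.04, against -0.02 over all genes. Aars, Cars, Sars and Mars1 fell (coefficients -0.94, -0.91, -0.85 and -0.59), and Qars, Farsb and Gars rose (1.95, 1.19 and 0.40). Among eIF2alpha kinase and phosphatase genes, 2 of 7 rose and 2 fell: Eif2ak4, the GCN2 kinase that senses uncharged tRNA, rose by 0.91 (SE 0.18, adjusted p = 0.0085), and its activator gene Gcn1 fell (coefficient -0.59, SE 0.12, adjusted p = 0.0109). The list of NRF2 antioxidant genes, a response to thiol stress alongside ATF4, held 1 of 8 higher and 4 lower, with Hmox1 at -1.43 and Gclm at -1.06. The higher one was Keap1 (0.43), the gene of the NRF2 inhibitor and not an antioxidant gene. ER chaperone genes of the ATF6 and XBP1 branches held 1 of 10 higher and 4 lower, led by Sdf2l1 (-1.62) and Creld2 (-1.56). The higher one was Xbp1 (0.52), a transcription factor gene. The share called was 47.4% for synthetase, 57.1% for kinase and phosphatase, 62.5% for NRF2 and 50% for chaperone genes, against 42.1% of all genes. The core TGATGNAA was in 6 of 15 feedback and stress-output genes with a promoter window, 5 of 13 synthetase genes, 2 of 10 metabolic enzyme genes, 1 of 6 transporter genes and 0 of the kinase and phosphatase, NRF2 and chaperone genes. It was in 4.51% of all genes.

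**Figure D2:**
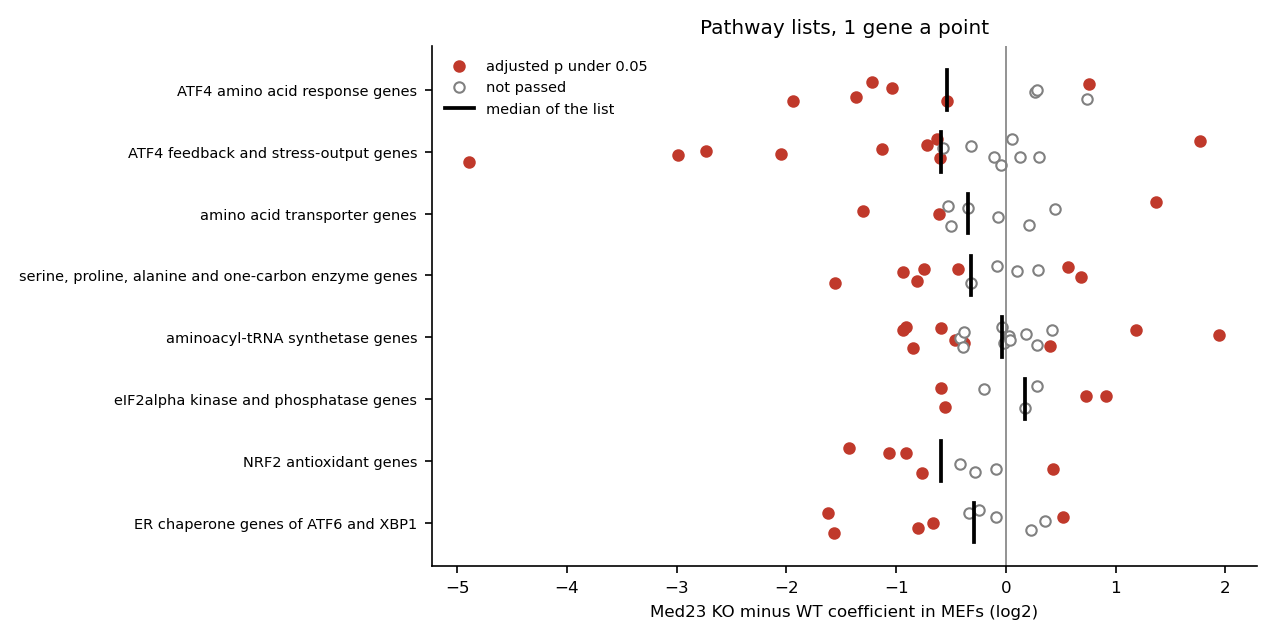
Med23 KO minus WT coefficients in MEFs on the log2 scale (x axis) for the ATF4 amino acid response genes and 7 related lists (rows), 1 gene a point, filled where adjusted p was under 0.05, with a bar at each list median. Medians lie between -0.59 and 0.17, and every list holds genes on both sides of 0. In the NRF2 list the called gene above 0 is Keap1, the gene of the NRF2 inhibitor.

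Serum exposure was used to follow SRF-dependent expression. In the fit over both genotypes, limma called 0 of the 9 members at 30 min against 0 min, with 4 at an unadjusted p under 0.05, as had 7.99% of all genes. It called 0.251% of all genes. Ddit3 came closest, with a coefficient of 1.07 (SE 0.15, adjusted p = 0.09) and single-array differences of 0.97 in KO and 1.17 in WT. Atf4 had a coefficient of 0.96 (SE 0.15, adjusted p = 0.12), with 1.06 in KO and 0.85 in WT. Both passed where the prior variance followed mean expression (adjusted p = 0.037 and 0.0321), and 0 members passed in the other tested alternatives. The mean of the 3 Atf4 probe sets had a coefficient of 0.48 (adjusted p = 0.444). That mean includes 1439258_at, which was above the array median on only 1 of 10 arrays and differed by -0.03. The second Atf4 probe set differed by 0.505.

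At 90 min against 0 min limma called 13.5% of all genes and 1 of the 9 members. Mthfd2 rose 2.53-fold (coefficient 1.34, SE 0.30, adjusted p = 0.0361). It stood at 5.77, 6.62 and 7.67 in KO over the 3 times and at 5.41, 6.24 and 6.19 in WT, so the increase from 30 to 90 min was on the KO arrays. The call was lost with the mean of both probe sets (1.04, adjusted p = 0.0744) and with low levels raised to the array median (adjusted p = 0.0595). Atf4 had a coefficient of 0.52 (adjusted p = 0.0755) and Psat1 one of -0.46 (adjusted p = 0.0987).

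Between 30 and 90 min limma called 0 of the 9 members, with 2 at an unadjusted p under 0.05, and 9.91% of all genes, with 30.3% at that unadjusted p. Ddit3 had a coefficient of -0.61 (SE 0.15, adjusted p = 0.0605) and passed in 4 of 8 tested alternatives, with adjusted p from 0.0276 to 0.123. Atf4 had one of -0.44 (adjusted p = 0.124). On the probe sets used in the fit, Atf4 and Ddit3 stood highest at 30 min in both genotypes, by amounts that did not pass. The second Atf4 probe set was highest at 90 min in WT. The mean of the 3 Atf4 probe sets, which includes the low 1439258_at, had a coefficient of -0.09.

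Outside the 10, limma called 1 of 16 feedback and stress-output genes and 0 of 9 transporter genes at 30 min, with 4 and 2 at an unadjusted p under 0.05, against 0.251% of all genes called. At 90 min it called 3 of the 16 (2 higher, 1 lower) and 2 of the 9 (both higher), against 13.5% of all genes. Atf3, an immediate-early bZIP gene that ATF4 also raises, rose by 5.43 at 30 min (SE 0.15, adjusted p = 0.000239). At 90 min Slc7a1, an arginine and lysine transporter gene, rose by 2.01 (SE 0.18, adjusted p = 0.00502), and Slc7a5, a transporter of large neutral amino acids, rose by 1.22 (SE 0.23, adjusted p = 0.0232). Eif2ak3, the ER-resident eIF2alpha kinase PERK, fell (coefficient -1.38, SE 0.32, adjusted p = 0.0423). The 11 metabolic enzyme genes and 19 synthetase genes had 0 calls at either time by limma, with 0 and 1 at an unadjusted p under 0.05 at 30 min and 4 of each list at 90 min. Over all genes, 7.99% had such an unadjusted p at 30 min and 31% at 90 min.

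The serum response of each genotype could be compared only as values of single arrays, without a test. At 30 min the KO response minus the WT response passed an absolute value of 1 for 0 of the 9 members, against 1.64% of all genes, and lay between -0.61 (Trib3) and 0.54 (Chac1). At 90 min it did so for 2 of the 9, against 6.44% of all genes. Chac1 was 3.08 above its 0 min level in KO and 0.06 above it in WT, a difference of 3.02. Mthfd2 was 1.90 above in KO and 0.78 above in WT, a difference of 1.12. Both remained past 1 after quantile normalization and with low levels raised, alternatives chosen after seeing the data.

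**Figure D3:**
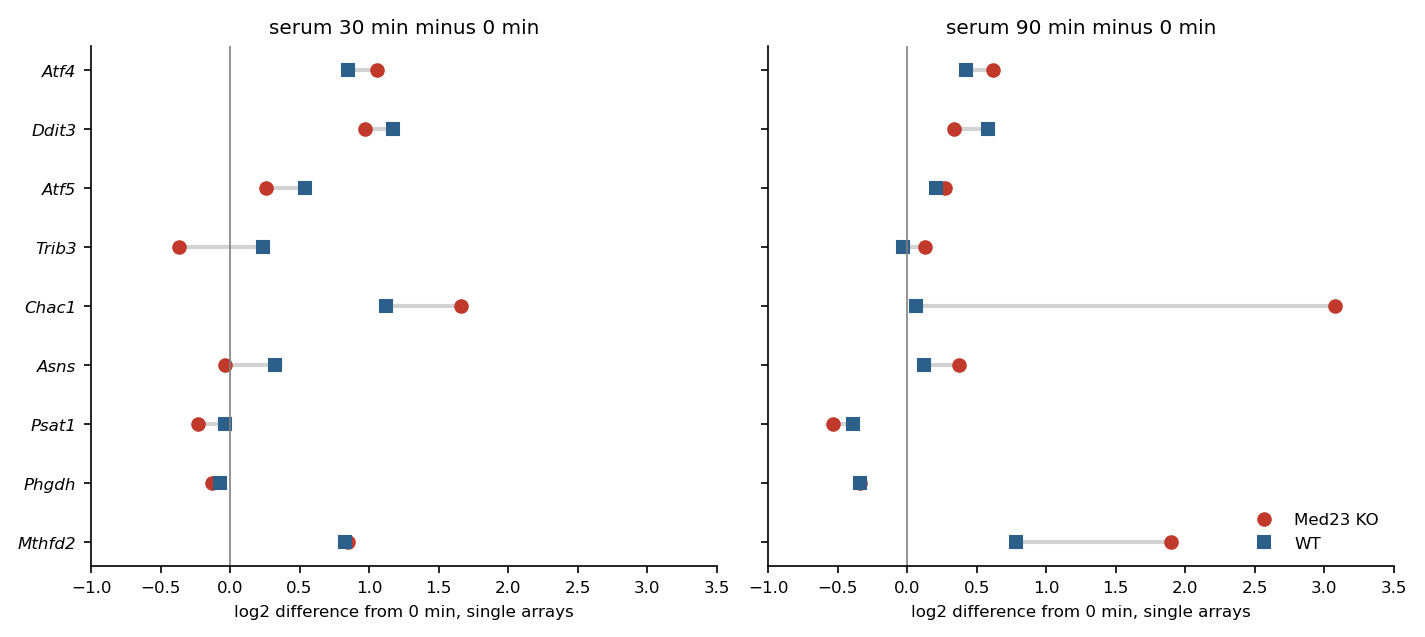
Log2 difference from the 0 min array (x axis) at 30 min (left) and 90 min (right) of serum for the 9 genes tested (rows), in Med23 KO MEFs (red circles) and WT MEFs (blue squares), single arrays. At 90 min Chac1 (3.08 in KO, 0.06 in WT) and Mthfd2 (1.90 in KO, 0.78 in WT) are the only genes shown whose genotypes lie more than 1 apart.

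In 10T1/2 cells, MAL overexpression addressed what an SRF coactivator does to expression. For this effect limma called 0 of the 9 members, with 2 at an unadjusted p under 0.05, and 0.0643% of all genes, with 27.6% at that unadjusted p. Asns had the highest coefficient, 0.79 (SE 0.20, adjusted p = 0.1). It read 9.28 with both treatments and 9.79 with MAL alone, against 8.66 with knockdown alone and 8.83 in the control, so both MAL arrays were above both others. It passed after quantile normalization (adjusted p = 0.0359) and in a fit over all 10 arrays (adjusted p = 0.0324), and no other member passed in any alternative. Atf4 had a coefficient of 0.54 (adjusted p = 0.168), reading 11.13 and 11.15 with MAL, with and without knockdown, and 10.75 and 10.46 without MAL in the same order.

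Knockdown of Med23 in 10T1/2 cells asked the same of the line as KO did of the MEFs. Here limma called 0 of the 9 members and 0% of all 12440 genes, although 5 members and 3972 genes (31.9%) had an unadjusted p under 0.05. The median coefficient of the members was -0.56, against -0.08 over all genes. Data were simulated for this comparison with 12440 genes, of which 100 changed by each log2 size. The fit recovered 1% of changes of 1 and 60% of changes of 2. That share of changed genes was set in advance and need not match these data, so the recovery here is not known. In a fit over all 10 arrays, Trib3, Atf5, Psat1 and Phgdh passed (4 of 9). After quantile normalization Trib3 alone did (adjusted p = 0.00368). In pooled fits without the control array or without the array of knockdown alone, Trib3 (-2.44, adjusted p = 0.0103 and 0.0106) and Psat1 (-0.93, adjusted p = 0.0384 and 0.0387) passed. Both fits rest on the single difference between the array of both treatments and that of MAL alone. Without the MAL array or the array of both treatments, 0 members passed, with Trib3 at -0.67 (adjusted p = 0.271 and 0.272) and Psat1 at -0.41 (adjusted p = 0.311 and 0.31).

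Trib3 had the lowest knockdown coefficient of the 9, -1.56 (SE 0.44, adjusted p = 0.105). It read 5.97 with both treatments and 6.89 with knockdown alone, against 8.41 with MAL alone and 7.56 in the control. Both knockdown arrays were below both others, and the second probe set had a mean difference of -1.91. Knockdown in the presence of MAL went with a difference of -2.44, and knockdown alone with one of -0.67.

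Atf5 read 9.72 and 9.74 in the knockdown arrays, with and without MAL, against 10.61 and 10.21 in the arrays without knockdown in the same order. Its coefficient was -0.68 (SE 0.21, adjusted p = 0.113). Psat1 read 8.99 and 9.0 with knockdown, with and without MAL, against 9.92 and 9.41 without it (coefficient -0.67, SE 0.22, adjusted p = 0.123). Phgdh read 10.38 and 10.63 with knockdown, against 11.06 and 11.14 without it, again with and without MAL (coefficient -0.60, SE 0.19, adjusted p = 0.117). In each of these 3 genes the knockdown arrays lay below the others. The share of all genes that separate without overlap, here and in the MEFs, was not counted. Such separation is therefore not shown to be particular to the members. Chac1 had a coefficient of -0.56 (SE 0.19, adjusted p = 0.131), reading 7.31 and 7.0 with knockdown and 7.97 and 7.45 without it.

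Ddit3 read 9.42 with both treatments and 9.33 with knockdown alone, against 9.48 with MAL alone and 8.55 in the control. Only the control stood apart, and the knockdown coefficient was 0.36 (SE 0.26, adjusted p = 0.385). Its second probe set had a mean knockdown difference of -0.02 and a mean MAL difference of -0.38, where the first had 0.51 for MAL, so the probe sets disagreed in these cells. Mthfd2 (0.26, adjusted p = 0.414), Atf4 (0.14, adjusted p = 0.65) and Asns (-0.34, adjusted p = 0.289) did not pass.

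**Figure D4:**
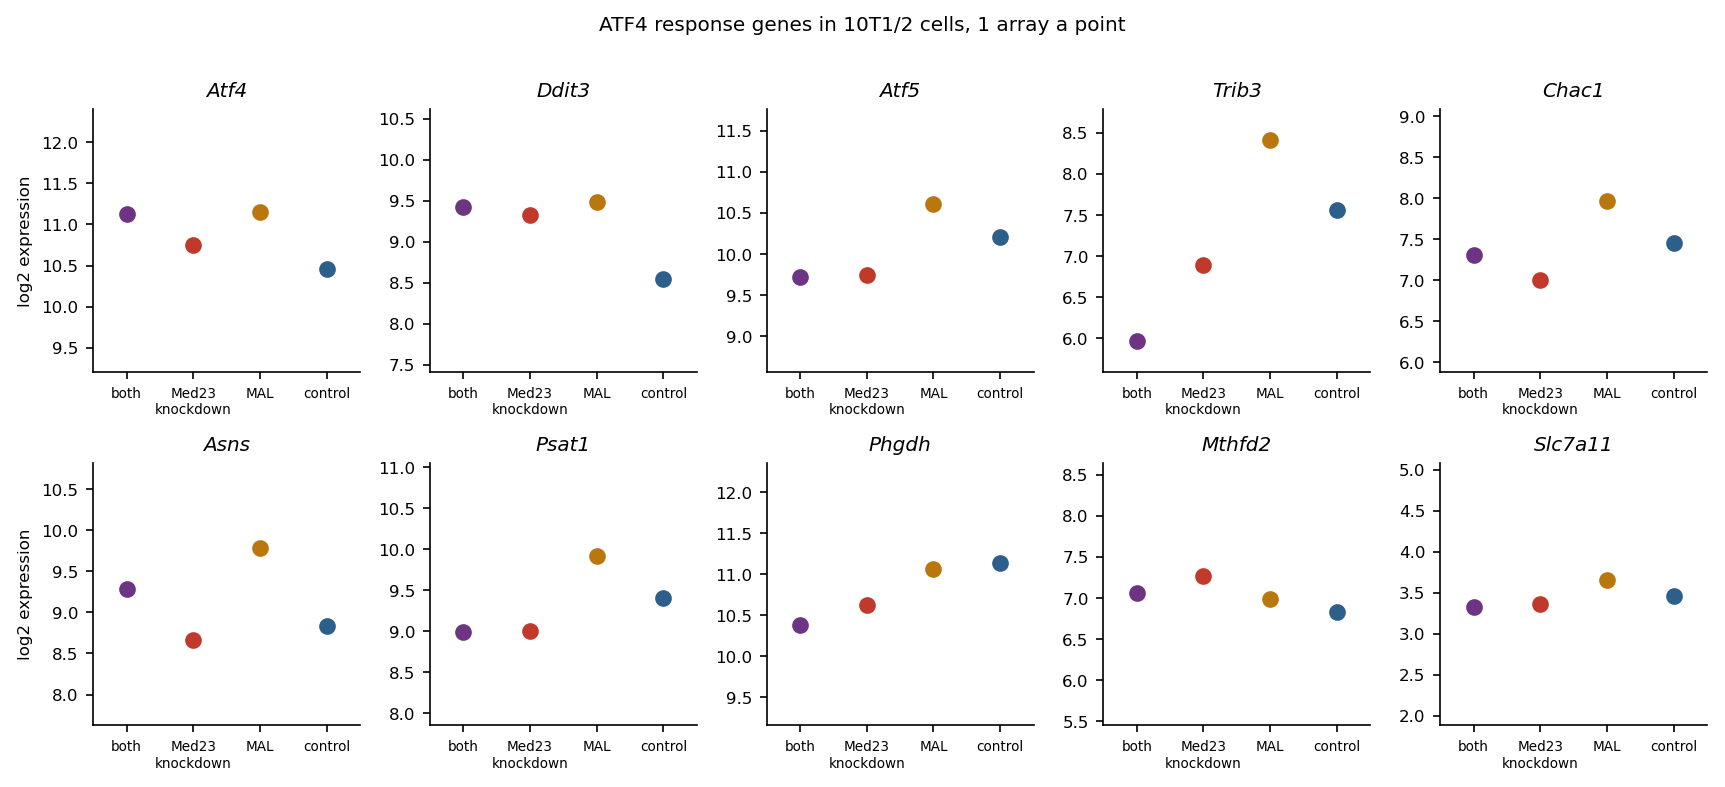
Log2 expression (y axis) of the 10 genes in 10T1/2 cells with MAL overexpression and Med23 knockdown (both), Med23 knockdown alone, MAL alone, or neither (control) (x axis), 1 array a point. Trib3 spans 5.97 with both treatments to 8.41 with MAL alone, and Asns is highest on the 2 MAL arrays (9.28 and 9.79).

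The value with both treatments was set against the sum of the separate effects, as single arrays with no test. It departed from that sum by at least 1 for 1 of the 9 members, against 7.18% of all genes. That member was Trib3, at -1.77: MAL alone stood 0.85 above the control and knockdown alone 0.67 below it (differences 0.85 and -0.67), while both together gave -1.59. Ddit3 was next, at -0.84, and the other 7 lay between -0.52 and -0.17.

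Whether the effect of Med23 loss differed between the cell types was tested in a fit over all 10 arrays. The KO effect in MEFs minus the knockdown effect in 10T1/2 cells passed for 2 of 9 members, against 29.3% of all 13034 genes. For Ddit3 the difference was -1.73 (SE 0.28, adjusted p = 0.00378), with -1.37 in MEFs and 0.36 in 10T1/2 cells. That 0.36 rests on the control array, since the differences were -0.06 with MAL and 0.78 without it, and the second probe set gave -0.02. For Psat1 it was 1.43 (SE 0.23, adjusted p = 0.0038), with 0.76 in MEFs and -0.67 in 10T1/2 cells, opposite signs. Both calls held in 3 of 3 alternatives, with Ddit3 between -1.77 and -1.73. Those alternatives neither left out the control array nor changed the probe set, so they do not bear on these limits.

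For the other 7 the difference did not pass. It was -0.54 for Atf5 (95% interval -1.08 to -0.00, adjusted p = 0.121) and 0.52 for Trib3 (95% interval -0.62 to 1.65, adjusted p = 0.475). Atf5, Trib3, Chac1 and Phgdh had negative single-array differences in all 3 MEF pairs and both 10T1/2 pairs. The share of all genes with the same sign in all of these pairs was not counted, so this is not shown to be particular to the members. Phgdh had nearly the same coefficient in both, -0.54 in MEFs and -0.60 in 10T1/2 cells, and the interval of the difference ran from -0.41 to 0.52. For Chac1 the interval of -3.17 to 0.39 was wide. A knockout and a partial knockdown differ in remaining Med23, so the sizes are not matched doses.

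**Figure D5:**
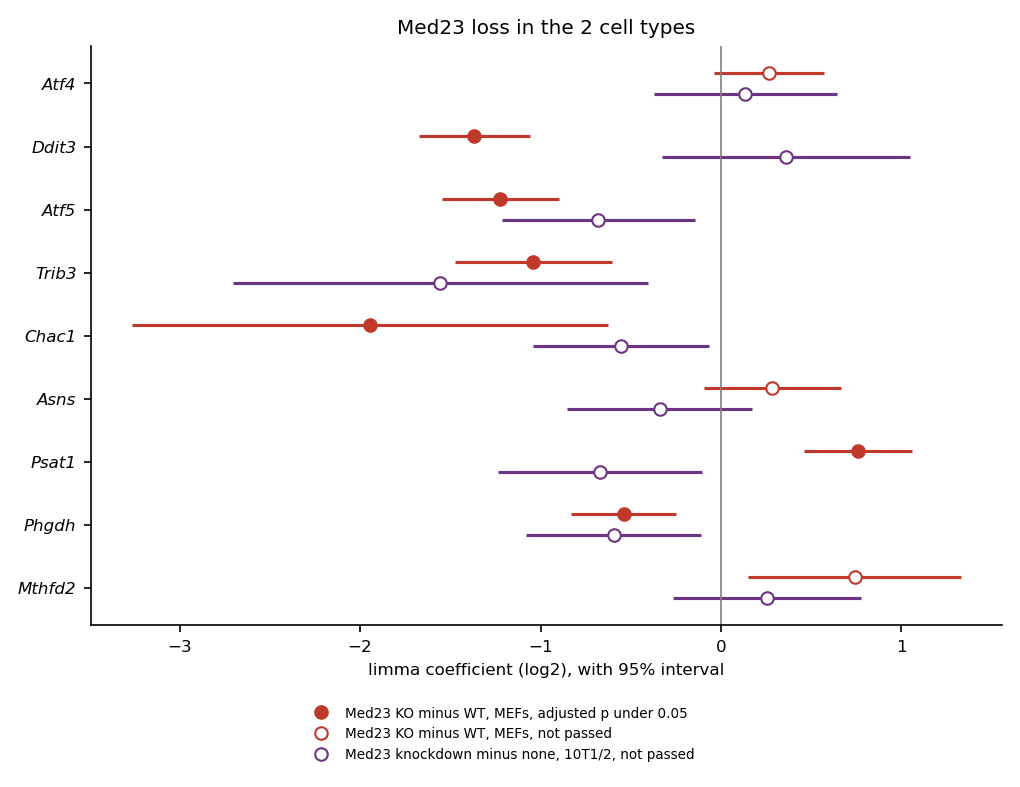
Coefficients on the log2 scale with 95% intervals (x axis) for the 9 genes tested (rows), for Med23 KO minus WT in MEFs (red) and Med23 knockdown minus none in 10T1/2 cells (purple), filled where adjusted p was under 0.05. Psat1 (0.76 and -0.67) has opposite signs in the 2 cell types, as do the coefficients of Ddit3 (-1.37 and 0.36), the second of which is -0.06 without the control array, while Atf5, Trib3, Chac1 and Phgdh are negative in both.

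For the 5 members that ranged over at least 2 log2 units, the genes with the most similar profile were found by the root mean square difference of centred log2 values over the 10 arrays, among 13033 other genes. These points share 2 cell types, whose differences weigh heavily. Nearest to Ddit3 were Focad (0.292), Cth (0.35) and Tacc1 (0.353), and nearest to Trib3 were Abhd1 (0.327), Chst1 (0.388) and Atf5 (0.4). Atf5 had Dnajc15 (0.283), 1500011B03Rik (0.286) and Hdhd3 (0.294) nearest, with Trib3 at rank 14. Chac1 had no close match, with Slc25a33 (0.573), Hes1 (0.579) and Dtx4 (0.596) nearest. Nearest to Mthfd2 were Clcn6 (0.229), Zbtb21 (0.245) and Mapkbp1 (0.251), and its nearest member, Atf4, was at rank 409.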

How the data were processed

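The values deposited by the authors were on the log2 scale and covered 45101 probe sets on each of 10 arrays. RMA and MAS5 are named per the submitters' processing notes, without roles or versions, and the sources used here do not say whether both cell types were normalized together. Symbols came from the platform annotation, updated through Entrez identifiers to RefSeq of GRCm38.p6. Where a gene had several probe sets, that with the highest mean stood for it. It was tested where its highest value in a fit exceeded the median of all probe sets there (3.90 in the MEFs, 3.67 in the 10T1/2 cells), which left 11933 and 12440 genes. Tests used limma 3.58.1 in R 4.3.3 with additive models: genotype and serum time (2 residual degrees of freedom), MAL and knockdown (1), and a fit of all arrays (3). p-values were two-sided, adjusted by the Benjamini-Hochberg method over all genes of a comparison, at a threshold of 0.05. Differences of single arrays were counted at an absolute log2 value of at least 1. Simulated data tested the fits, with 100 genes changed by each size, a share that need not match the data. For KO against WT, with 11933 genes, 76% of changes of 1 and 100% of changes of 2 on the log2 scale were recovered. Alternatives covered normalization, filter, probe set choice, prior, low levels, pooled fits and leaving out arrays. From each related list the rule named up to 4 called genes in each direction with the largest coefficients. The members and lists were chosen with earlier results of these data known. Gdf15, Pycr1, Eif2s1 and G6pdx were not analysed here.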

Additional observations from a re-analysis of the deposited data

Results flagged for a closer look

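The effect of Med23 loss differed between the cell types for 2 members by the test of the difference itself. Ddit3 had a KO effect in MEFs minus knockdown effect in 10T1/2 cells of -1.73 on the log2 scale (SE 0.28, limma adjusted p = 0.00378), and it was lower in KO than in WT in 3 of 3 pairs of arrays. Its knockdown pairs disagreed, at 0.78 without MAL and -0.06 with it, and its second probe set had a mean knockdown difference of -0.02. Psat1 had 1.43 (SE 0.23, adjusted p = 0.0038), and it was higher in KO in 3 of 3 pairs and lower with knockdown in 2 of 2. Of all 13034 genes, 29.3% passed this test. Groups of 1 array or of 3 were too small to be searched for outlying samples.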

How the results depend on the processing

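Some alternatives could not change a coefficient, such as another filter, a trend in the prior, no term for serum time or the fit over all arrays. Their repeats are counted here but could not turn a sign. No single-gene value past the threshold changed sign under an alternative run here. Among values not past it, 26 of 530 repeats turned sign, such as Ddit3 under knockdown (0.36, and -0.06 without the control array), Trib3 under MAL (-0.04, and 0.85 without the knockdown array) and Chac1 from 30 to 90 min (0.18, and -1.06 without the KO arrays). Ddit3 and Atf5 kept their KO calls in 12 of 12 alternatives, Trib3 in 11 of 11, Psat1 in 11 of 12, Phgdh in 9 of 12 and Chac1 in 8 of 12. Over all genes, KO against WT gave 5018 calls, 2857 with no term for serum time and 2398 to 4891 on leaving out a serum time (2680 without 0 min and 2398 without 30 min). The members called then numbered 3 to 6, lowest without the 0 min arrays. At 30 min of serum the 30 calls became 13 with the mean of probe sets or raised levels, 59 with a trend in the prior (2 members) and 58 in the fit over all arrays. At 90 min, 0 members passed with the mean of probe sets or raised levels and 2 with the trend. For 90 against 30 min the mean of probe sets gave 768 calls, and 1 member passed with centred arrays, the stricter filter, the mean of probe sets or the trend. For MAL, the 8 calls became 2014 after quantile normalization, 0 with centred arrays, no filter or raised levels, 5 with the stricter filter, 587 with the mean of probe sets, 542 with the trend and 2236 over all arrays, with 1 member by quantile or all arrays. Leaving out an array gave 480 to 1253. For knockdown, the 0 calls became 2472 after quantile normalization (1 member), 340 with the mean of probe sets, 599 with the trend and 2658 over all arrays (4 members), with 176 to 1729 and 0 to 2 members on leaving out an array. The causes of these moves were not tested. The labels give no replicate numbers; the term for serum time sets KO beside WT at each time. Levels below the array median, as for Slc7a11, could not be read.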
